A study of Mus musculus with 49 samples.

Results

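The 7 genes Gabra2, Gabra3, Gabra4, Gabra5, Gabrb1, Gabrb2 and Gabrd, which encode subunits of the GABA-A receptor, were followed through laser microdissected layers of the mouse hippocampus. Members were found by looking up these symbols in the platform annotation of the array. Of the 7 genes 5 had a listed probe set, with 1 probe set each, among 22626 probe sets tested and 11807 genes named by a single symbol. No probe set is listed for Gabra4 or Gabra5, which were therefore not analysed here.

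The GABA-A receptor is a chloride channel built of 5 subunits around a central pore and opened by GABA, the main inhibitory transmitter of the forebrain. Alpha and beta subunits form the GABA binding sites between them, and an accompanying gamma or delta subunit sets where the receptor sits and how it responds. Many receptors with a gamma subunit gather at synapses and bind benzodiazepines. Receptors with the delta subunit lie outside synapses, are known from dentate granule cells and carry a tonic current. Gabra2 is an alpha subunit of synapses on hippocampal pyramidal cells, Gabra3 an alpha subunit with little expression in the adult hippocampus, and Gabrb1 and Gabrb2 are beta subunits that contribute to GABA binding and membrane delivery.

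The arrays came from the pyramidal layers of subfields CA1 and CA3 and from dentate gyrus (DG) granule cells of female littermate mice aged 6.1 months. rTg4510 mice carried both a TRE-driven human tau transgene with the P301L mutation, from an FVB/N line, and the tetracycline-controlled transactivator (tTA) under the Camk2a promoter, from a 129S6 line. tTA mice carried the transactivator alone, and DN (double negative) mice carried neither transgene. There were 6 rTg4510, 5 tTA and 6 DN mice, which gave 5, 5 and 6 arrays of CA1, 6, 5 and 5 arrays of CA3, and 6, 5 and 6 arrays of DG in that order of genotypes. The Camk2a promoter is active in excitatory forebrain neurons, which limits the cells in which the transactivator, and through it the tau transgene, is driven. rTg4510 and tTA mice differed by the tau transgene and its insertion, and tTA and DN mice by the transactivator transgene and its insertion. In either comparison these parts cannot be told apart. Mice with the tau transgene alone were not analysed here.

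RMA values are in log2 units, 1 unit being a doubling, and each array is 1 mouse in 1 subfield. The signals of different probe sets were not compared with each other. A probe set is called dim where its mean lies below 5.04, the median over probe sets. The captured layers carried their own markers: in DN mice all 3 measured markers of CA1 pyramidal cells had their call in favour of CA1 against CA3 and against DG, 3 of 4 markers of CA3 pyramidal cells in favour of CA3 against both, and 5 of 6 dentate granule markers in favour of DG against both. The labels number rTg4510 mice from mouse4535 to mouse4666, tTA mice from mouse4570 to mouse4637 and DN mice apart from both, from mouse4797 to mouse4886. No hybridization batch is given in the sources used here. In comparisons with DN mice, any cohort or batch effect that follows these numbers cannot be told apart from genotype. In bulk captures, fewer cells of a type and less RNA per cell cannot be told apart.

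The Gabra2, Gabrb1 and Gabrb2 transcripts were lowest in tTA mice. Between tTA and DN mice these fell in each subfield, 3 of the 5 measured members every time, and 0 of 5 rose (limma, adjusted p below 0.05 over all probe sets). Over all probe sets 16.2% were called in CA1 (8.85% lower), 9.09% in CA3 (4.97% lower) and 16.7% in DG (9.44% lower). The median over the 5 members was −0.74 for CA1, −0.44 for CA3 and −0.64 for DG, while the median of all probe sets was 0.05, 0.03 and 0.03. For the difference of this comparison between subfields limma called 0 of 5 members, with 1 member at an unadjusted p below 0.05 in each of the 3 tests, against a background of 1.65% of probe sets called for DG minus CA1, 1.24% for DG minus CA3 and 0.72% for CA1 minus CA3.

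Between rTg4510 and tTA mice Gabra2 rose in CA1, which was the single call of the 5 members there. In CA3 and DG 0 of 5 members were called by limma, where 2 (Gabrb1 and Gabrb2) and 1 (Gabrb2) had an unadjusted p below 0.05, and 0 were called by the least significant difference test of the methods. The background was 10.6% of probe sets called in CA1, 1.13% in CA3 and 0.782% in DG. The median difference of the members was 0.17 in CA1, 0.44 in CA3 and 0.13 in DG, against −0.03, −0.02 and −0.01 over all probe sets. Between rTg4510 and DN mice 1 of 5 members fell in CA1 (Gabrb1), 0 of 5 in CA3 and 1 of 5 in DG (Gabra2), where 23.4%, 3.12% and 8.86% of all probe sets were called. In CA3 2 of 5 had an unadjusted p below 0.05 (Gabra2 and Gabrb1), and the least significant difference test called 0. These 3 comparisons share arrays, so that the same tTA arrays enter the comparisons with DN and with rTg4510 mice on opposite sides.

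**Figure D1:**
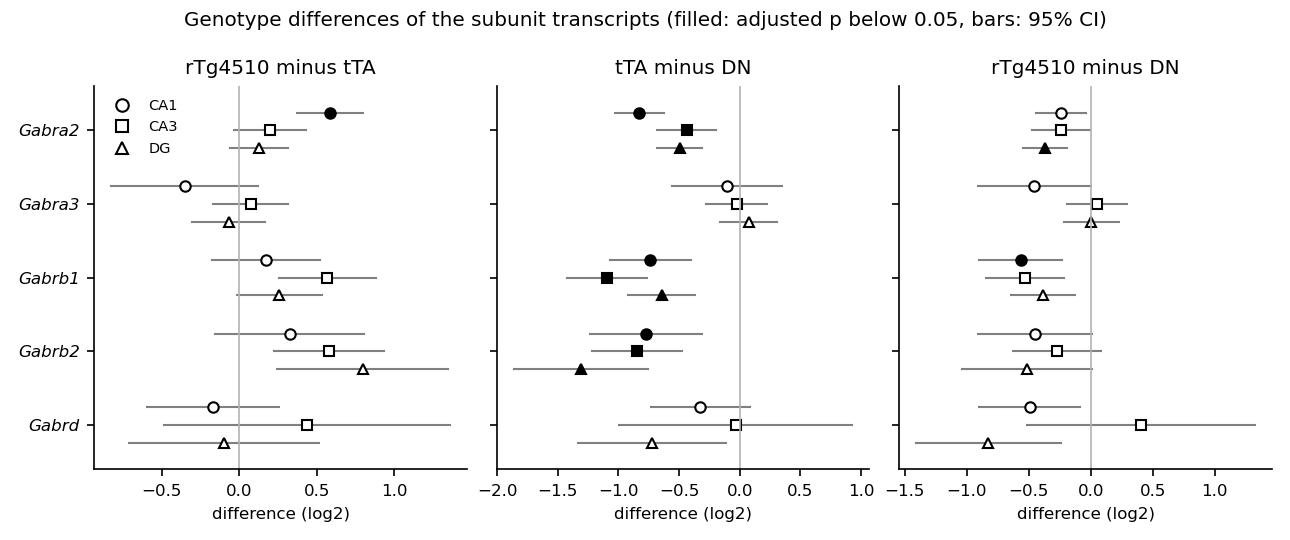
Differences between genotypes (x axis, log2) of the 5 measured subunit transcripts in CA1 (circles), CA3 (squares) and DG (triangles), with 95% confidence intervals from limma as lines and filled symbols for an adjusted p below 0.05. All 9 points of Gabra2, Gabrb1 and Gabrb2 in the tTA minus DN panel are filled and lie between −0.44 and −1.31, and in the rTg4510 minus tTA panel the Gabra2 point of CA1 at 0.58 is filled.

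Gabra2 (probe set 1421738_at) showed the clearest genotype differences of the alpha subunits. In CA1 it was at 9.46, 9.60, 9.20, 9.21 and 9.40 in the 5 rTg4510 mice. The 5 tTA mice had 8.85, 8.57, 8.64, 9.01 and 8.88, and the 6 DN mice ranged from 9.51 to 9.73 with a median of 9.60. Every rTg4510 mouse lay above every tTA mouse and every tTA mouse below every DN mouse, while rTg4510 and DN mice overlapped. The rise over tTA mice was 0.58 (SE 0.10, 1.5-fold, adjusted p = 0.00208), and the fall of tTA against DN mice was −0.83 (SE 0.10, to 56.4% of the DN level, adjusted p = 6.46e-05). Between rTg4510 and DN mice the difference was −0.24 (95% CI −0.45 to −0.04, adjusted p = 0.0804). It was called without rTg4510 mouse4549 (0.036) and by the least significant difference test on anti-log values (0.0395).

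In CA3 Gabra2 ranged from 8.99 to 9.45 with a median of 9.26 in the 6 rTg4510 mice. It was at 8.75, 9.25, 8.87, 9.34 and 8.98 in tTA mice and at 9.63, 9.58, 9.46, 9.34 and 9.37 in DN mice. The tTA and DN ranges met at 9.34, and the difference of −0.44 was called (SE 0.12, adjusted p = 0.0267). This call was lost when any of 6 mice was left out, namely DN mouse4797 (adjusted p = 0.0724), mouse4825 (0.0678) and mouse4866 (0.0597) and tTA mouse4570 (0.065), mouse4592 (0.0677) and mouse4637 (0.055). Against tTA mice, rTg4510 mice differed by 0.20 in CA3 (95% CI −0.03 to 0.43, adjusted p = 0.42).

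In DG the 6 rTg4510 mice ranged from 9.15 to 9.48 with a median of 9.27 for Gabra2. The tTA mice had 9.18, 8.93, 9.24, 9.32 and 9.12, and the 6 DN mice ranged from 9.51 to 9.79 with a median of 9.64. All DN mice lay above all rTg4510 and all tTA mice, which overlapped each other. Gabra2 fell by 0.49 in tTA against DN mice (SE 0.09, adjusted p = 0.00108) and by 0.37 in rTg4510 against DN mice (SE 0.08, adjusted p = 0.01), and it differed by 0.13 between rTg4510 and tTA mice (95% CI −0.06 to 0.31, adjusted p = 0.543).

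The rTg4510 minus tTA difference of Gabra2 was larger in CA1 than in DG. The difference between the subfields was 0.46 (SE 0.13, adjusted p = 0.0304) in a model of all 49 arrays with the mouse as a block, where 5.45% of probe sets were called. For CA1 minus CA3 it was 0.38 (95% CI 0.12 to 0.65, adjusted p = 0.0924), with 3.88% of probe sets called, and for CA3 minus DG it was 0.07 (adjusted p = 0.933), with 0.00884% called. The CA1 minus DG call was lost without the mouse as a block (adjusted p = 0.0507), with array weights (0.106) and without rTg4510 mouse4535 (0.0574), mouse4549 (0.0762) or mouse4621 (0.0524) or tTA mouse4592 (0.0977). Within tTA mice Gabra2 was lower in CA1 than in DG in 5 of 5 mice, and within rTg4510 mice it was higher in CA1 in 3 of 5.

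The start regions of the 3 subunit genes that fell together are shown because they precede annotated starts of these genes, and which start gave the measured transcript is not known here. Each run holds the 250 bases before an annotated start in RefSeq, build GRCm38.p6, read 5′ to 3′ on the gene's strand, with motif matches in capitals. The Gabra2 window is chr5:71095850-71096099 on the minus strand. The Gabrb1 window, chr5:71699682-71699931 on the plus strand, precedes the second of 2 starts in the table, and the Gabrb2 window, chr11:42420190-42420439 on the plus strand, precedes the first of 3. Both of these lie inside the annotated gene, downstream of its first base.
Gabra2: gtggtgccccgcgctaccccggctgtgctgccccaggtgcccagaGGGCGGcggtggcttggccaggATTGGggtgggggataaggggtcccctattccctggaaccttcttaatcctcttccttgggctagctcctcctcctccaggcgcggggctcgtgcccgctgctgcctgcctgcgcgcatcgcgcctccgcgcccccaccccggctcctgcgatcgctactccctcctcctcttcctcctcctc
Gabrb1: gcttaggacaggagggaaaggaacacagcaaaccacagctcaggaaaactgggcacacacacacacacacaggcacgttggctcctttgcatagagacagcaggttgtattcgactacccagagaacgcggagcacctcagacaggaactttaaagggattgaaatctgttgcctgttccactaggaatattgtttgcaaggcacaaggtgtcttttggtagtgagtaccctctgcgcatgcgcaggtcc
Gabrb2: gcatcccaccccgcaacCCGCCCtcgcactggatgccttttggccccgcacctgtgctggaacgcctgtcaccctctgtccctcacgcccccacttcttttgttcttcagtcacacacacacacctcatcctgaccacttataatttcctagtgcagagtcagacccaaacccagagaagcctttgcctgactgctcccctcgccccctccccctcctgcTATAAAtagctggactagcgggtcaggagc
The motifs searched on both strands were the TATA box (TATAAA), the CCAAT box (CCAAT), the GC box (GGGCGG), the E-box (CACGTG), the cyclic AMP response element (TGACGTCA) and the AP-1 site (TGACTCA), which do not overlap in these runs. Of 32851 windows of the same length in the table, 12.4%, 33.8%, 32.7%, 6.02%, 1.55% and 4.46% held them in this order. The Gabra2 run held a GC box and, on the other strand, a CCAAT box, the Gabrb2 run held a TATA box that begins 30 bases before the start and, on the other strand, a GC box, and the Gabrb1 run held none of the 6. Of the windows not shown, the first of Gabrb1, which lies inside the annotated Gabra4 gene, held none of the 6, the second of Gabrb2 held a CCAAT box alone, and the third held none. GC content was 70.0% for Gabra2, 50.8% for Gabrb1 and 58.8% for Gabrb2, with a median of 52.4% over all windows. In the same annotation Gabra2, Gabra4, Gabrb1 and Gabrg1 lie in a cluster on chromosome 5, Gabrb2 lies on chromosome 11, and Gabra3, Gabra5 and Gabrd lie elsewhere.

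Gabrb1 (probe set 1419719_at), a beta subunit, fell in tTA mice in all 3 subfields. In CA1 it was at 9.09, 8.84, 9.61, 9.10 and 8.84 in rTg4510 mice and at 9.28, 9.05, 8.70, 8.94 and 8.65 in tTA mice. The 6 DN mice ranged from 9.26 to 9.93 with a median of 9.64, and the lowest of them, mouse4797, lay within both other ranges. The tTA mice differed from DN mice by −0.74 (SE 0.16, adjusted p = 0.00542) and the rTg4510 mice by −0.56 (SE 0.16, adjusted p = 0.0156), while rTg4510 and tTA mice differed by 0.17 (95% CI −0.18 to 0.52, adjusted p = 0.574).

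In CA3 of tTA mice Gabrb1 had its lowest group mean. It ranged from 8.62 to 9.52 with a median of 9.05 in the 6 rTg4510 mice. The tTA mice had 8.32, 8.67, 8.14, 8.75 and 8.59 and the DN mice 9.80, 9.74, 9.66, 9.43 and 9.33, with no overlap between tTA and DN. The fall against DN mice was −1.10 (SE 0.16, to 46.8% of the DN level, adjusted p = 0.000628). Against tTA mice, rTg4510 mice were 0.57 higher (95% CI 0.25 to 0.88), which was not called (adjusted p = 0.077). It was called in the model of all 49 arrays, with the mouse as a block (adjusted p = 0.0296) or without (0.0372), and without rTg4510 mouse4549 (0.0387), the lowest of its group. Between rTg4510 and DN mice the difference of −0.53 was not called either (adjusted p = 0.0658). It was called in the model of all arrays with the block (adjusted p = 0.0293) or without it (0.037) and without rTg4510 mouse4653 (0.0213). Array weights (0.0331) and a test of only brighter probe sets (0.0453) gave a call too.

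In DG Gabrb1 ranged from 9.04 to 9.68 with a median of 9.32 in rTg4510 mice. It was at 9.55, 9.08, 8.83, 9.02 and 8.94 in tTA mice and ranged from 9.56 to 9.88 with a median of 9.72 in DN mice. The highest tTA animal, mouse4570, stood just below the lowest DN mouse. The fall of tTA against DN mice was −0.64 (SE 0.13, adjusted p = 0.00263), and rTg4510 mice differed by 0.26 from tTA mice (95% CI −0.01 to 0.53, adjusted p = 0.361) and by −0.39 from DN mice (95% CI −0.65 to −0.12, adjusted p = 0.062). The difference from DN mice was called without rTg4510 mouse4600 (adjusted p = 0.029), with 2 genotypes in the fit (0.0392), with array weights (0.023) and with only brighter probe sets tested (0.0463).

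Gabrb2 (probe set 1450319_at), the other measured beta subunit, had the largest fall of the members, in DG. There it ranged from 5.34 to 6.54 with a median of 6.25 in rTg4510 mice. The tTA mice had 5.48, 5.81, 5.19, 4.94 and 5.21, and DN mice ranged from 5.69 to 7.43 with a median of 6.58. The highest tTA mouse exceeded the lowest DN mouse, and the rTg4510 range took in values of both. The tTA mice differed from DN mice by −1.31 (SE 0.26, to 40.4% of the DN level, adjusted p = 0.00259). The rTg4510 mice were 0.80 above tTA mice (95% CI 0.24 to 1.35), which was not called (adjusted p = 0.146) but was in the model of all arrays, with the mouse as a block (adjusted p = 0.0463) or without (0.048), and without rTg4510 mouse4549 (0.0499).

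In CA3 Gabrb2 ranged from 5.67 to 6.21 with a median of 5.88 in rTg4510 mice. It was at 5.37, 5.42, 5.33, 5.41 and 5.05 in tTA mice and at 6.69, 6.26, 5.43, 6.05 and 6.39 in DN mice. All tTA mice lay below all rTg4510 and all DN mice, the lowest DN animal, mouse4866, being 0.01 above the highest tTA mouse. The fall of tTA against DN mice was −0.85 (SE 0.18, adjusted p = 0.00734), and the rTg4510 mice were 0.58 above tTA mice without a call (95% CI 0.23 to 0.94, adjusted p = 0.105).

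In CA1 Gabrb2 was at 6.95, 6.41, 6.43, 5.76 and 6.67 in rTg4510 mice and at 5.85, 5.92, 6.65, 6.25 and 5.94 in tTA mice. The 6 DN mice ranged from 6.31 to 7.40 with a median of 6.95, and all 3 ranges overlapped. The fall of tTA against DN mice was −0.78 (SE 0.22, adjusted p = 0.0241). It was lost after a second quantile normalization (adjusted p = 0.0626) and without DN mouse4883 (0.053) or mouse4886 (0.0541) or tTA mouse4570 (0.0551), mouse4580 (0.0508) or mouse4637 (0.0534). The rTg4510 mice differed by 0.33 from tTA mice (95% CI −0.16 to 0.81, adjusted p = 0.417) and by −0.45 from DN mice (95% CI −0.91 to 0.01, adjusted p = 0.153).

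Gabra2, Gabrb1 and Gabrb2 are grouped here because each was called lower in tTA than in DN mice in every subfield, which fixes that part of their order. The rTg4510 mean stood between the tTA and DN means in each subfield for these 3 genes. Of all 409 probe sets called lower in tTA mice in the 3 subfields 58.7% had the same order throughout. In Gabra2, Gabrb1, Gabrb2 and Gabrd each pair of neighbours among the 9 ordered group means, 8 pairs a gene, had ranges over mice that overlapped.

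**Figure D2:**
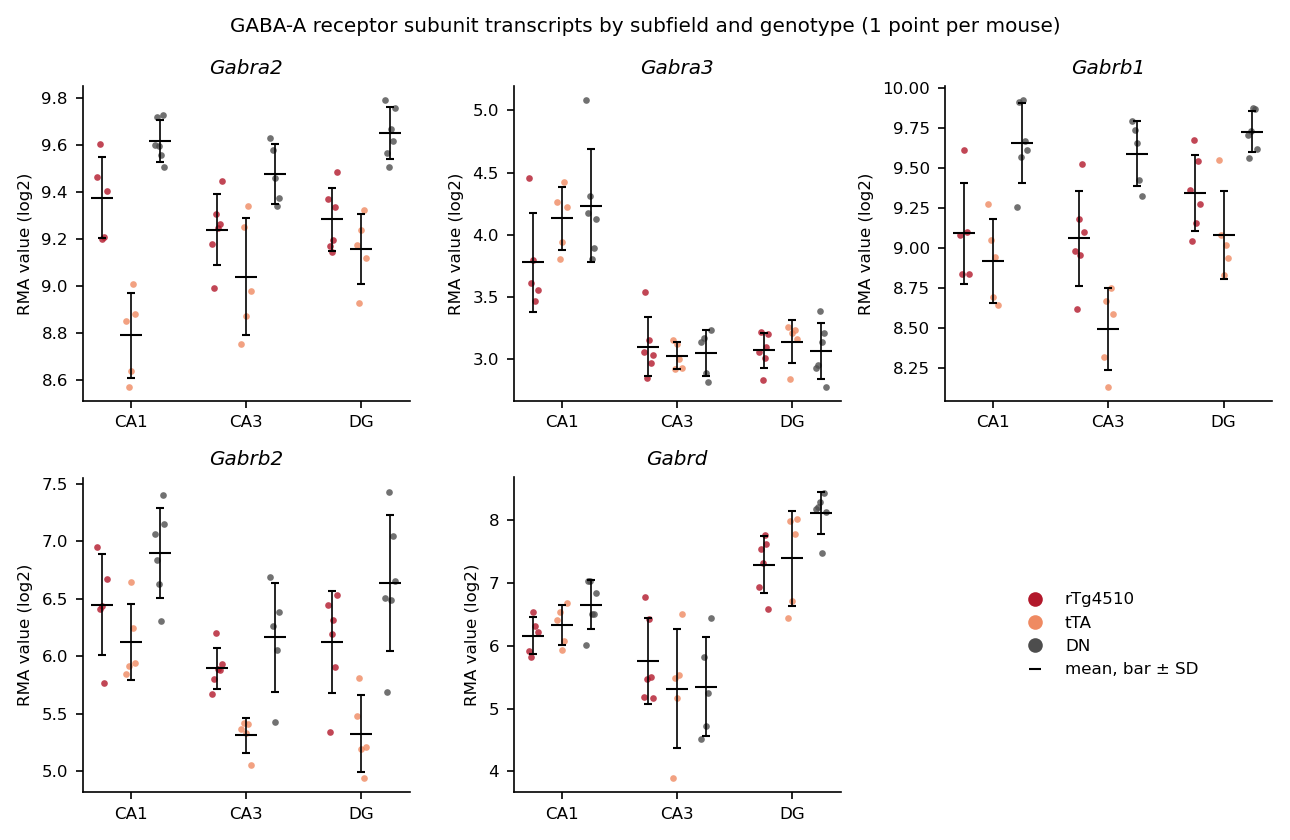
RMA values (y axis, log2) of the 5 measured subunit transcripts in CA1, CA3 and DG (x axis), with 1 point per mouse, rTg4510 left, tTA in the middle and DN right, and black bars for mean ± SD. Gabra2 in CA1 averaged 9.38 ± 0.17 in rTg4510, 8.79 ± 0.18 in tTA and 9.62 ± 0.09 in DN mice (n = 5, 5 and 6), and Gabrd was highest in DG in each genotype.

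Gabrd (probe set 1449980_a_at), the delta subunit of receptors outside synapses, was called between each pair of subfields in DN mice and in 0 comparisons of genotypes. In DG it ranged from 6.58 to 7.76 with a median of 7.43 in rTg4510 mice. It was at 6.44, 7.99, 6.72, 7.78 and 8.02 in tTA mice and ranged from 7.47 to 8.44 with a median of 8.20 in DN mice. Of the tTA mice 3 lay within the DN range and the others below it, and the rTg4510 range overlapped both. The difference was −0.83 for rTg4510 against DN mice (95% CI −1.41 to −0.24, adjusted p = 0.0738) and −0.73 for tTA against DN mice (95% CI −1.34 to −0.12, adjusted p = 0.0995), neither of them called. The rTg4510 difference was called without DN mouse4866 (adjusted p = 0.048), with array weights (0.0212), with 2 genotypes in the fit (0.0218) and with only brighter probe sets tested (0.0435).

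In CA1 Gabrd was at 5.92, 5.82, 6.54, 6.32 and 6.22 in rTg4510 mice and at 6.41, 6.54, 5.94, 6.08 and 6.69 in tTA mice. The 6 DN mice ranged from 6.02 to 7.04 with a median of 6.67, overlapping both. The difference between rTg4510 and DN mice was −0.49 (95% CI −0.90 to −0.09, adjusted p = 0.0747), and it was called without DN mouse4797 (0.0185) or rTg4510 mouse4600 (0.0416). In CA3 Gabrd varied widely between mice of 1 genotype, with an SD of 0.68 in rTg4510, 0.94 in tTA and 0.79 in DN mice, and the tTA minus DN difference was −0.03 (95% CI −0.99 to 0.93, adjusted p = 0.975). With this spread the CA3 interval reaches almost 1 log2 unit to either side.

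Gabra3 (probe set 1421263_at) was dim in all 9 groups. In CA1 it was at 4.46, 3.62, 3.80, 3.47 and 3.56 in rTg4510 mice and at 4.26, 3.81, 3.94, 4.42 and 4.23 in tTA mice, and ranged from 3.81 to 5.08 with a median of 4.15 in DN mice. All rTg4510 mice but mouse4535 lay below the tTA and DN ranges, and mouse4535 lay above the tTA maximum. The difference was −0.35 against tTA mice (95% CI −0.83 to 0.12, adjusted p = 0.364) and −0.45 against DN mice (adjusted p = 0.142). The difference from DN mice was called in the model of all arrays, with the mouse as a block (adjusted p = 0.0293) or without (0.0289), and without rTg4510 mouse4535 (0.0379). Group means in CA3 and DG stood between 3.03 and 3.14, with 0 calls between genotypes.

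In DN mice the measured subunits differed between layers, as tested with the mouse as a block. CA1 against CA3 gave 3 of 5 members higher and 0 lower, where 12.9% of probe sets were called. CA1 against DG gave 1 higher and 1 lower, where 17.5% were called, and CA3 against DG gave 1 lower, where 21.7% were called. Gabra2 and Gabrb1 were called in none of the 3 comparisons, and their CA3 minus DG intervals ran from −0.36 to 0.01 and from −0.42 to 0.14.

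Gabrd was the subunit with the steepest layer profile in DN mice. The difference was −2.76 for CA3 minus DG (SE 0.31, 6.76-fold lower in CA3, adjusted p = 1.38e-09) and −1.46 for CA1 minus DG (SE 0.30, adjusted p = 0.000186), and Gabrd was 1.29 higher in CA1 than in CA3 (SE 0.31, adjusted p = 0.00228). The same order of DG over CA1 was seen in 6 of 6 DN mice and of CA1 over CA3 in 5 of 5. DG exceeded CA1 also in 5 of 5 rTg4510 and 5 of 5 tTA mice. CA1 exceeded CA3 in 4 of 5 rTg4510 and 5 of 5 tTA mice. In DN mice 3 of 6 dentate granule markers were called higher in CA1 than in CA3 and 1 lower (12.9% over all probe sets). The part of granule cell signal in the Gabrd difference between CA1 and CA3 was not tested.

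Gabra3 was higher in CA1 than in CA3 by 1.19 (SE 0.15, adjusted p = 3.81e-08) and than in DG by 1.17 (SE 0.14, adjusted p = 1.14e-08), although dim in each. The DN values were 3.14, 3.17, 2.89, 2.82 and 3.24 in CA3, and ranged from 2.78 to 3.39 in DG, so that no CA1 array overlapped either. CA1 stood above CA3 in 5 of 5 and above DG in 6 of 6 DN mice. It stood above both also in 5 of 5 rTg4510 and 5 of 5 tTA mice. Between CA3 and DG the difference was −0.02 (95% CI −0.32 to 0.28). Gabrb2 was 0.75 higher in CA1 than in CA3 (SE 0.22, adjusted p = 0.0132) in 5 of 5 DN mice, a call that was lost without mouse4883 (adjusted p = 0.103). Between CA3 and DG Gabrb2 differed by −0.49 without a call (adjusted p = 0.108). This was called with array weights (adjusted p = 0.0366) and without DN mouse4806 (adjusted p = 0.0195), which had no CA3 array.

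**Figure D3:**
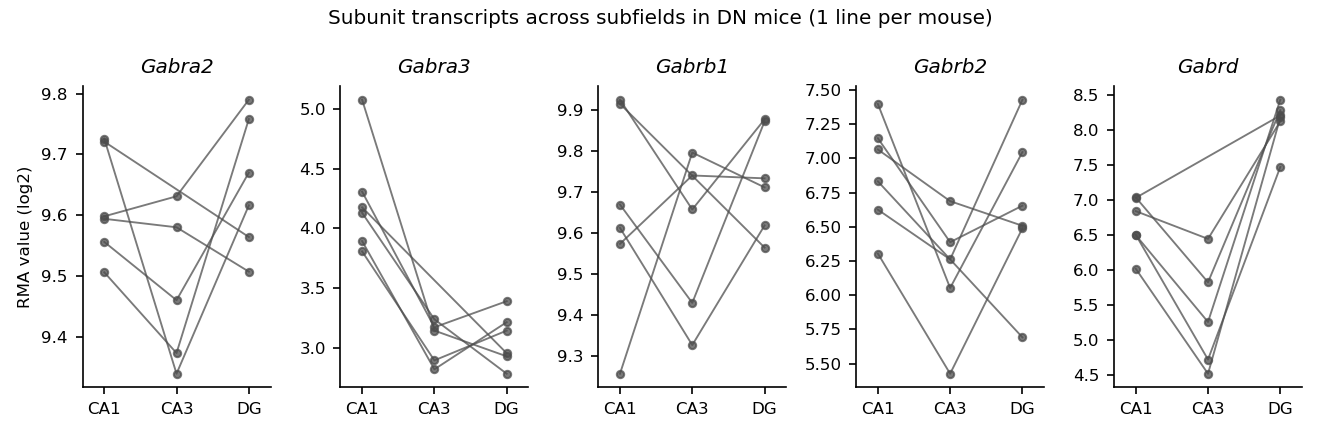
RMA values (y axis, log2, a separate scale per gene) of the 5 measured subunit transcripts in CA1, CA3 and DG (x axis) of DN mice, with 1 line per mouse (6 mice, 1 of them without a CA3 array). Gabrd was highest in DG in 6 of 6 mice, Gabra3 was highest in CA1 in 6 of 6, and the Gabra2 values lay between 9.34 and 9.79.

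Of the other GABA-A receptor subunit genes 8 were analysed here. Gabra6, Gabre, Gabrp, Gabrq, Gabrr1 and Gabrr2 were dim, with group means between 2.52 and 3.66. Of these 6 only Gabrr2 had a call, 0.19 higher in CA3 than in DG of DN mice (adjusted p = 0.0385). The remaining pair are gamma subunits, and Gabrg1 is known from astrocytes as well as neurons.

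Gabrg1 was higher in tTA than in DN mice in CA1 and DG. Its brighter probe set (1460408_at) averaged 7.83 ± 0.38 in rTg4510, 7.39 ± 0.27 in tTA and 6.66 ± 0.20 in DN mice in CA1. In tTA against DN mice it rose by 0.72 in CA1 (SE 0.16, adjusted p = 0.00736) and by 0.93 in DG (SE 0.24, adjusted p = 0.0113), and in CA3 it stood 0.76 higher without a call (adjusted p = 0.0868). In rTg4510 against DN mice it rose by 1.16 in CA1 (SE 0.16, adjusted p = 9.37e-05), with no overlap between these groups. Between rTg4510 and tTA mice it differed by 0.44 in CA1 (limma, adjusted p = 0.12), −0.31 in CA3 (0.623) and −0.32 in DG (0.578), none of them called. The dimmer probe set (1427227_at) was called in CA1 for rTg4510 against DN mice (0.83, adjusted p = 0.00692) and in DG for tTA against DN mice (0.60, adjusted p = 0.0273), but not in CA1 for tTA against DN mice (0.42, adjusted p = 0.171). Gabrg3 was at 7.41 ± 0.33 in CA1 of DN mice, 1.48 above CA3 (SE 0.27, adjusted p = 5.28e-05) and 1.17 above DG (SE 0.26, adjusted p = 0.000514). In tTA against DN mice Gabrg3 differed by −0.99 in CA1 (adjusted p = 0.0522), −0.53 in CA3 (adjusted p = 0.101) and −0.61 in DG (adjusted p = 0.166), and in rTg4510 against tTA mice by 1.21 in DG (adjusted p = 0.0541), none of them called.

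**Figure D4:**
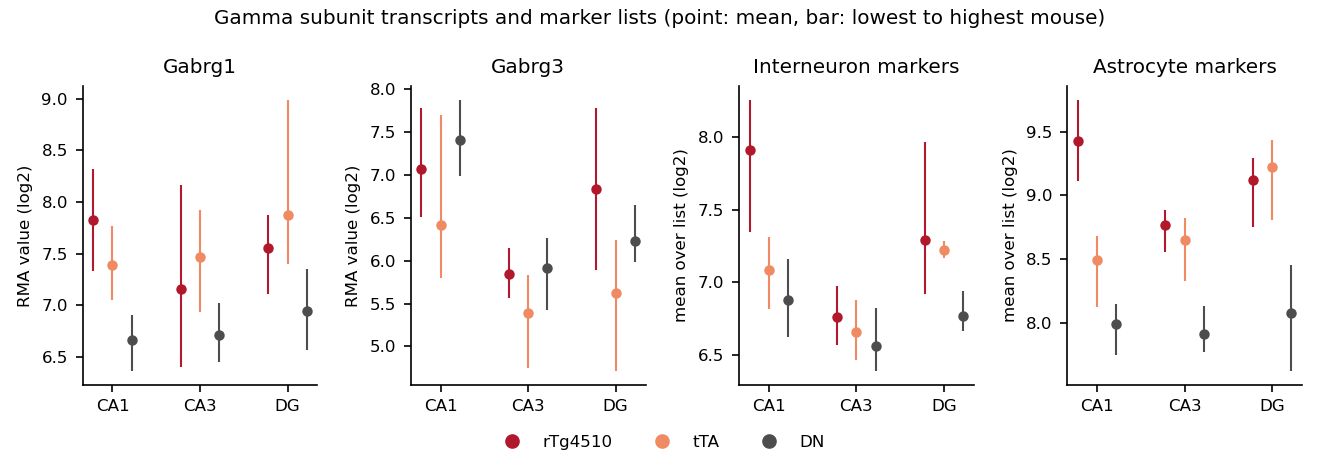
Group means (points) with the lowest and highest mouse (bars) of Gabrg1 and Gabrg3 (RMA value, log2) and of the mean over 12 interneuron and 9 astrocyte marker genes (log2) in CA1, CA3 and DG, with rTg4510 left, tTA in the middle and DN right. In CA1 Gabrg1 stood at 7.83 in rTg4510, 7.39 in tTA and 6.66 in DN mice, and the astrocyte list at 9.43 in rTg4510, 8.49 in tTA and 7.99 in DN mice.

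Marker lists of other cell types moved with the genotypes to differing degrees. The calls in them stand beside 10.6% of all probe sets called for rTg4510 against tTA mice in CA1, and 16.2%, 9.09% and 16.7% called for tTA against DN mice in CA1, CA3 and DG. In CA1 the mean over 12 interneuron markers was 7.91 in rTg4510 (7.35 to 8.26 over mice), 7.09 in tTA (6.81 to 7.31) and 6.88 in DN mice (6.62 to 7.16). Of these 8 of 12 rose in rTg4510 against tTA mice, and 2, 0 and 1 rose in tTA against DN mice in CA1, CA3 and DG. Of 9 astrocyte markers 7 rose in CA1 of rTg4510 against tTA mice, and 5, 7 and 8 rose in tTA against DN mice in CA1, CA3 and DG. The mean over the astrocyte list in CA1 was 9.43 in rTg4510 (9.12 to 9.75 over mice), 8.49 in tTA (8.13 to 8.68) and 7.99 in DN mice (7.75 to 8.15). In DG it was 9.12 in rTg4510 (8.76 to 9.29), 9.22 in tTA (8.81 to 9.43) and 8.08 in DN mice (7.62 to 8.46). Of 10 microglia markers 8 rose in CA1 of rTg4510 against tTA mice, and 3, 8 and 7 rose in tTA against DN mice in CA1, CA3 and DG. The mean over 6 oligodendrocyte markers in CA1 was 8.19 in rTg4510 (7.77 to 8.57 over mice), 7.29 in tTA (6.88 to 8.02) and 6.62 in DN mice (6.28 to 7.04). Of these 3 rose in CA1 of rTg4510 against tTA mice, and 3, 0 and 2 rose in tTA against DN mice in CA1, CA3 and DG. Of 7 endothelial markers 2 rose in CA1 of rTg4510 against tTA mice, and 1, 0 and 1 rose in tTA against DN mice in CA1, CA3 and DG. For tTA against DN mice the interneuron and endothelial counts were near or below the shares over all probe sets. The neuron list of each subfield was highest in DN mice. In CA1 the mean over 3 CA1 pyramidal markers was 7.55 in rTg4510 (6.73 to 8.22), 9.06 in tTA (8.57 to 9.51) and 9.43 in DN mice (9.29 to 9.57). All 3 fell in rTg4510 against tTA mice, and 1 of 3 fell in tTA against DN mice. In CA3 the mean over 4 CA3 pyramidal markers was 8.04 in rTg4510 (7.94 to 8.17), 7.75 in tTA (7.57 to 8.07) and 8.16 in DN mice (7.99 to 8.35), and 2 of 4 fell in tTA against DN mice. In DG the mean over 6 dentate granule markers was 7.68 in rTg4510 (7.45 to 7.94), 7.33 in tTA (6.97 to 7.65) and 8.17 in DN mice (7.83 to 8.39), and 3 of 6 fell in tTA against DN mice. Of the astrocyte list at most 1 marker was dim in a group, of the oligodendrocyte list at most 2, of the interneuron list at most 4, of the microglia list at most 5 and of the endothelial list at most 6. The part of these shifts in the differences of the subunits was not tested.

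A measure of RNA integrity had its highest group mean in DN mice in each subfield. Its SD over mice ran from 0.07 to 0.23, and the ranges of the genotypes overlapped in each subfield. The Actb control probe set at the 3′ end minus that at the 5′ end was −0.48 in rTg4510, −0.70 in tTA and −0.37 in DN mice in CA1. It was −0.63 in rTg4510, −0.64 in tTA and −0.45 in DN mice in CA3, and −0.52 in rTg4510, −0.61 in tTA and −0.30 in DN mice in DG. With this measure as a covariate 6 of the 9 falls in tTA against DN mice kept their call. Gabrb1 in CA1 (−0.48, adjusted p = 0.183), Gabra2 in CA3 (−0.35, adjusted p = 0.119) and Gabrb1 in DG (−0.53, adjusted p = 0.0846) lost it, as did Gabra2 in DG between rTg4510 and DN mice (−0.33, adjusted p = 0.075). Over all probe sets the calls for tTA against DN mice in CA1 went from 3656 to 866 with the covariate. The rise of Gabra2 in CA1 of rTg4510 against tTA mice stood at 0.63 with the covariate (adjusted p = 0.00777).

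Genes for making, moving and breaking down GABA rose in CA1 of rTg4510 mice. Of 8 genes for synthesis, transport and breakdown of GABA 5 were measured. Against tTA mice 4 of the 5 rose, where 10.6% of all probe sets were called. Gad1 and Gad2, the glutamate decarboxylases that make GABA, rose by 0.90 (SE 0.16, adjusted p = 0.0023) and 1.25 (SE 0.20, adjusted p = 0.00132). Slc32a1, the vesicular GABA transporter, rose by 1.35 (SE 0.23, adjusted p = 0.00209), and Abat, the transaminase that breaks GABA down, by 0.62 (adjusted p = 0.00945). Gad1, Gad2 and Slc32a1 are also in the interneuron list. For tTA against DN mice 0 of the 5 genes were called in each subfield. Over all probe sets 16.2% were called there in CA1, 9.09% in CA3 and 16.7% in DG. The list's median was 0.05 in CA1, −0.21 in CA3 and −0.02 in DG.

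Chloride transport genes also differed in CA1. Of these, the carriers Slc12a2 and Slc12a5 act on the direction of the current through the receptor. In CA1 of rTg4510 against tTA mice 7 of 9 astrocyte markers rose and 3 of 3 CA1 pyramidal markers fell. Which cells gave the differences of the chloride transport genes was not tested. Slc12a2 (NKCC1), which loads chloride into cells, rose by 0.88 in rTg4510 against tTA mice (SE 0.15, adjusted p = 0.00229), and Slc12a5 (KCC2), which extrudes it from neurons, differed by −0.33 (SE 0.10, adjusted p = 0.0443). Slc12a5 was also lower in tTA than in DN mice, with a difference of −0.46 in CA1 (adjusted p = 0.00469) and −0.38 in DG (adjusted p = 0.0117). The Slc12a2 difference was 0.63 larger in CA1 than in DG (adjusted p = 0.0132), and that of Slc12a5 differed by −0.50 between CA1 and DG (adjusted p = 0.0159). Clcn3, an endosomal chloride and proton exchanger, was lowest in tTA mice too. It rose in rTg4510 against tTA mice by 0.50 in CA1 (adjusted p = 0.00749) and 0.53 in CA3 (adjusted p = 0.0148), and differed between tTA and DN mice by −0.66 in CA1 (adjusted p = 0.000678) and −0.53 in CA3 (adjusted p = 0.00339). Of 6 measured chloride transport genes 2 rose and 1 fell in CA1 for rTg4510 against tTA mice, where 10.6% of probe sets were called, and 3 fell for tTA against DN mice, where 8.85% were called lower, Slc12a5, Clcn3 and the dim Clcn2 (−0.76, adjusted p = 0.00329).

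Of 22 genes listed for anchoring and trafficking of the receptor, among them the ligand Dbi, 12 were measured. For rTg4510 against tTA mice the number called was 2 of 12 in CA1 (10.6% over all probe sets). For tTA against DN mice it was 3 of 12 in CA1 (16.2%), 2 of 12 in CA3 (9.09%) and 3 of 12 in DG (16.7%). Dbi is in each of these counts. In rTg4510 against tTA mice those that rose in CA1 were Rdx (radixin, which anchors receptors that hold the alpha 5 subunit) by 0.77 (adjusted p = 0.00836) and Dbi (an endogenous ligand of the benzodiazepine site) by 0.44 (adjusted p = 0.0135), and 0 were called in CA3 and DG. In tTA against DN mice Dbi rose by 0.53 in CA1 (adjusted p = 0.00253), 0.65 in CA3 (adjusted p = 0.00292) and 0.64 in DG (adjusted p = 0.00211). Gabarap, which binds gamma subunits during transport, rose by 0.70 in CA3 (adjusted p = 0.00225) and 0.61 in DG (adjusted p = 0.000686), while Nsf, a membrane fusion ATPase, differed by −0.60 in CA1 (adjusted p = 0.022) and −0.48 in DG (adjusted p = 0.00317). Ubqln1, which stabilizes receptor subunits, differed by −0.30 in CA1 (adjusted p = 0.0447).

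Among GABA-B receptor genes 2 of 5 were measured. Gabbr1, a subunit of that G protein-coupled receptor, differed by −0.31 between tTA and DN mice in CA1 (adjusted p = 0.0403), and Kctd12, an auxiliary subunit, by −0.51 in DG (adjusted p = 0.00254). Of the glycine receptor genes 4 of 5 were measured and 0 were called between genotypes, where 0.782% to 23.4% of all probe sets were called. In each of the 9 groups 3 of these 4 genes were dim. In DN mice Glrb, the beta subunit of that receptor, was 0.43 higher in CA1 than in DG (adjusted p = 0.0209).

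The genes whose 9 group means ran most like those of each member are given as a description, since arrays of 1 mouse enter several groups. For Gabra2 they were Son (r = 0.979), Ankhd1 (r = 0.979) and Aqr (r = 0.971) among 9020 candidate probe sets above the dim limit. For Gabrb1 they were Ctr9 (r = 0.975), Zfp292 (r = 0.973) and Thumpd3 (r = 0.965), and for Gabrb2 Ddx18 (r = 0.976), Mrpl39 (r = 0.961) and Atp13a3 (r = 0.957). Gabrd ran like Rfx3 (r = 0.991), Sipa1l2 (r = 0.987) and Pde1b (r = 0.987), and Gabra3 like Mis18a (r = 0.991), Ccn3 (r = 0.986) and Ntm (r = 0.983). All were picked as the highest r among the candidates, and r takes no account of the size of a change. The group means of Mrpl39 spanned 0.36 against 1.58 for Gabrb2, and those of Ccn3 5.40 against 1.21 for Gabra3. Among the members themselves r over the 9 means was 0.84 for Gabra2 with Gabrb1, 0.76 for Gabrb1 with Gabrb2 and 0.67 for Gabra2 with Gabrb2. These 3 genes were grouped by their fall in tTA against DN mice, which enters the same means, so no conclusion is drawn from these r values. In pairs with Gabra3 or Gabrd r ran from −0.09 (Gabra2 with Gabra3) to 0.54 (Gabra3 with Gabrb2), and it was 0.49 for Gabrb1 with Gabrd.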

How the data were processed

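RNA was extracted from laser captured subfields, amplified, labelled and hybridized by the authors to Affymetrix HT-MG-430A arrays, 49 in all from 17 mice. The deposited log2 values were made by the authors with RMA (background correction, quantile normalization and probe summary), which makes differences relative to the bulk of transcripts. The version and which arrays were normalized together are not given in the sources used here. Of 22716 probe sets 90 controls were left out, and platform annotation gave 18003 of the rest 1 symbol, 287 several and 4336 none.

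Genotypes were compared within a subfield with limma 3.58.1 in R 4.3.3 (lmFit and eBayes, 3 genotypes sharing 1 estimate of the spread), and subfields, and differences between subfields, in 1 model of 9 groups with the mouse as a random block (duplicateCorrelation, consensus 0.117). Benjamini-Hochberg adjustment ran over 22626 probe sets, and an adjusted p below 0.05 is a call. The titles give the mouse of each array, so arrays of 1 mouse are paired between subfields, and 47 such pairs had a median correlation of deviations of 0.119, against −0.0031 for different mice. The number of arrays limits the precision. Mice are separate animals. All probe sets of the members are named, and from each other list the called genes with the largest differences. The members and lists were chosen with earlier results of these data known. Likeness is Pearson's r over 9 group means among brighter probe sets. Alternatives were other fits, the methods' least significant difference test, a second quantile normalization, array weights, a filter on dim probe sets, an RNA quality covariate and leaving out each mouse.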

Additional observations from a re-analysis of the deposited data

Results flagged for a closer look

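Among 45 groups of a member, genotype and subfield, 3 held a mouse that stood apart from the others by Dixon's test at its 95% level, which chance gives in about 1 in 20 groups. Gabra3 in DG of tTA mice was at 2.841 in mouse4580, with the next at 3.159 and the highest at 3.258, all of them dim. Gabrb2 in CA3 of tTA mice was at 5.05 in mouse4637, with the next at 5.328 and the highest at 5.416. Gabrd in DG of DN mice was at 7.473 in mouse4866, with the next at 8.126 and the highest at 8.435, and without this mouse the difference between rTg4510 and DN mice was −0.95 (limma, adjusted p = 0.048).

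The rTg4510 minus tTA difference of Gabra2 differed between subfields, by 0.4553 for CA1 minus DG (limma, adjusted p = 0.0304). Of the 5 tTA mice 5 had less Gabra2 in CA1 than in DG.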

How the results depend on the processing

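Of 19 called differences of members 12 kept their call under each alternative run, and over 310 alternatives 287 kept direction and call, 23 lost the call and 0 reversed. In the model of all arrays with the mouse as replicate block the number of called members was 1 in CA3 and 1 in DG for rTg4510 against tTA mice (0 and 0 in the fit within a subfield), and for rTg4510 against DN mice it was 2 in CA1 and 1 in CA3 (1 and 0 in the fit within a subfield). The same model without the replicate block, added after seeing the data, gave the same counts (1, 1, 2 and 1), with calls of the same genes, so that the block changed no count between genotypes. Without the replicate block the Gabra2 difference between CA1 and DG lost its call, which left 0, as with array weights (0). For rTg4510 against DN mice the count was 2 in CA1 with the methods' test on anti-log values, 1 in CA3 with array weights and with brighter probe sets only, and in DG 3 with only these 2 genotypes, with array weights or with brighter probe sets, and 0 with the Actb covariate. In DN mice it was 1 for CA1 against DG with brighter probe sets only, where the dim Gabra3 was not tested, and 2 for CA3 against DG with array weights. Leaving out 1 mouse gave counts of 0 to 1 for rTg4510 against tTA in CA3 and in DG, 1 to 2, 0 to 1 and 1 to 2 for rTg4510 against DN in CA1, CA3 and DG, 1 to 2 for CA3 against DG, and 0 to 1 for the CA1 minus CA3 and the CA1 minus DG differences of rTg4510 against tTA. The call added to CA1 minus CA3 was Gabra2 without tTA mouse4570 (adjusted p = 0.0396). The causes were not tested.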
